A study of Mus musculus with 36 samples.

Results

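The comparison covers 6 of the 36 libraries of a mouse liver regeneration series, the 3 young libraries labelled 72 and the 3 young libraries labelled 96. They were chosen by their sample titles and by no measured value. The mice were of the inbred strain C57BL/6JN, 4 months old when labelled young and 18 months when labelled old, and every group held n = 3 biological replicates. The 6 time labels (before, 48, 72, 96, 120 and 240) carry no unit in the labels, and what set off regeneration is not named there, so both times are given as labelled. All libraries came from frozen liver tissue, from total RNA depleted of ribosomal RNA with a Zymo-Seq Ribo-free kit, after ERCC spike-in mix 1 had been added to young and mix 2 to old RNA. The count tables held 0 ERCC entries, so the values are relative amounts within a library. The comparison asks which transcripts differed between the young liver at 72 and at 96, and the young libraries labelled before and the old libraries labelled 72 and 96 serve as references.

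In an injured liver, hepatocytes, which are normally out of the cell cycle, replicate their DNA and divide, and other liver cells follow. Genes of mitosis are switched on late in that cycle, and many carry in their promoters a CHR element (cell cycle genes homology region) together with CCAAT boxes, which are bound by the MuvB-based complexes and by NF-Y. While hepatocytes divide, much of their metabolic programme is turned down, and it is taken up again as growth ends.

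Promoters from the RefSeq table (build GRCm38.p6, 250 bases before to 50 bases after the annotated start, given in the direction of the gene) show these elements for the groups of genes on which the results turn. Cdkn3 is shown as a member of the cell cycle lists that fell, Plk1 and Ccnb2 as mitosis genes with low adjusted p, and Ifit3 as an interferon-stimulated gene for contrast. Capitals mark, on either strand, the CHR, searched as TTTGAA (which reads as TTCAAA from the other strand) and as TTCGAA (the same from both strands), and the CCAAT box, searched as CCAAT (which reads from the other strand as ATTGG), in the cell cycle genes. In Ifit3 they mark the interferon-stimulated response element, ISRE (GAAANNGAAA, TTTCNNTTTC on the other strand, where N is any base).
Cdkn3, chr14:46760291-46760590, plus strand: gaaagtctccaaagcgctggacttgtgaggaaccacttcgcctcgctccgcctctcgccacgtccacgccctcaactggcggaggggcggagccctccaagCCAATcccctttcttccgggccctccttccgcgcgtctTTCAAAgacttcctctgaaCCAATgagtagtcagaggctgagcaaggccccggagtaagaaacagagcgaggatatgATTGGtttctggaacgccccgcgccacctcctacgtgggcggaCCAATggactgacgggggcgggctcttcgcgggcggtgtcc
Plk1, chr7:122159185-122159484, plus strand: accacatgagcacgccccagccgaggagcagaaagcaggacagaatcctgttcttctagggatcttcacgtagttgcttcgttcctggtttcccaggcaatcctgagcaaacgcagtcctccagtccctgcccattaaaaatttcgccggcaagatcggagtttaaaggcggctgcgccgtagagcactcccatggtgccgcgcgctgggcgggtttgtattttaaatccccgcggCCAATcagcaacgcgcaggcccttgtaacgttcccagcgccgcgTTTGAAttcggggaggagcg
Ccnb2, chr9:70421505-70421804, minus strand: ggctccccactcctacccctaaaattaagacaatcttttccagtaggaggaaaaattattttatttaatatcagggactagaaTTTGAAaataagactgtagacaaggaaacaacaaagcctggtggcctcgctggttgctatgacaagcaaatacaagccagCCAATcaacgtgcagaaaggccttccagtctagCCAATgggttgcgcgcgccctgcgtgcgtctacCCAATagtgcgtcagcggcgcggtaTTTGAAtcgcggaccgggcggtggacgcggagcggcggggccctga
Ifit3, chr19:34583279-34583578, plus strand: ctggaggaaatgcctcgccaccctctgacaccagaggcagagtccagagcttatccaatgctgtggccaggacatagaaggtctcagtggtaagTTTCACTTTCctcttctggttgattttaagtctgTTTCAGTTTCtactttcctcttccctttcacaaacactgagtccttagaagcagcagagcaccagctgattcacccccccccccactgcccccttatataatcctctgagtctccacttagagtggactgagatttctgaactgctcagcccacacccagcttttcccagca

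The printed windows held 1 CHR and 4 CCAAT boxes for Cdkn3, 1 of each for Plk1, 2 CHR and 3 CCAAT boxes for Ccnb2, and 2 ISRE matches for Ifit3. Over the mitosis genes tested (50, of which 40 had a promoter in the table), 34 of 42 promoters held a CHR, or 81%, against 19.2% of all 32851 promoters and 14.3% of the promoters of tested genes. A CCAAT box was present in 32 of these 42 (76.2%, against 37.4% of all), and both elements together in 30 of them (71.4%, against 7.52%). Promoters of the DNA replication list held a CHR in 6 of 36, or 16.7%. In the interferon-stimulated list 20 of 32 promoters held an ISRE, or 62.5%, against 3.44% of all. Of the genes that fell from 72 to 96, 24 of 35 had promoters in the table, and 6 of their 31 promoters (19.4%) held a CHR. Matches to the CHR and to the CCAAT box shared bases in 1 promoter of the mitosis list and in 48 of all promoters. These matches describe the letters of a fixed window and are no evidence of binding.

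The 6 libraries held 3716709 to 5992831 counts each (all 36 held 2328233 to 6034446), and 15736 to 18039 gene symbols had at least 1 count. At these depths a count of 3 corresponds to 0.501 to 0.807 CPM (CPM is the count scaled to the library's total, itself adjusted by the TMM method). The 10 hepatocyte markers had counts in every library and summed to 48760, 60370 and 72860 CPM in replicates 1, 2 and 3 at 72 and to 63750, 58040 and 66920 CPM at 96, so the defining genes of the labelled tissue were present throughout. In each of the 12 groups 1 library carried Y-linked transcripts, above 10 CPM in sum, which are replicate 3 at 72 and replicate 2 at 96. Replicate 3 at 72 also stood apart in the outcome: it was the lowest of its group for 49 of 50 mitosis genes, the lowest for 21 of the 35 genes that fell and the highest for 15 of the 18 that rose. The count of called genes, the mitosis list and some single genes are therefore given with and without it. The other lists are given with it only. Pancreas, fat and mesothelial markers summed to 147.5 CPM in replicate 1 at 96 and to 6.08 to 18.7 CPM in the other 5 libraries.

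From 72 to 96, 53 of 13436 tested genes changed in the young liver (0.394%) at an adjusted p under 0.05 (edgeR quasi-likelihood F test, Benjamini-Hochberg adjustment), 18 upward (0.134%) and 35 downward (0.26%). The smallest adjusted p was 0.0272, and 1998 genes (14.87%) had an unadjusted p under 0.05. For all 53 the 3 values at 96 lay outside the range of the 3 values at 72, as they did for 1502 higher (11.2%) and 1400 lower (10.4%) genes among all those tested. The median log2 fold change over all tested genes was 0.01. DESeq2 called 290 genes, which included these 53. Without replicate 3 at 72 the count was 370 (110 up, 260 down), with all 53 among them. That library was singled out in part by these same genes, so the 370 are a description and add no support. The count was 0 without any one of the other 5 libraries (replicate 1 or 2 at 72, replicate 1, 2 or 3 at 96), when 1404 to 1715 genes had an unadjusted p under 0.05. With Y-linked transcripts as a covariate 174 genes were called, and without the 12 libraries that carry them 362. Replicate 3 at 72 and replicate 2 at 96 are among those 12, so the 362 also leave out the library singled out above. The covariate marks the same libraries, and neither count adds support. P-values measure the spread between these samples.

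**Figure D1:**
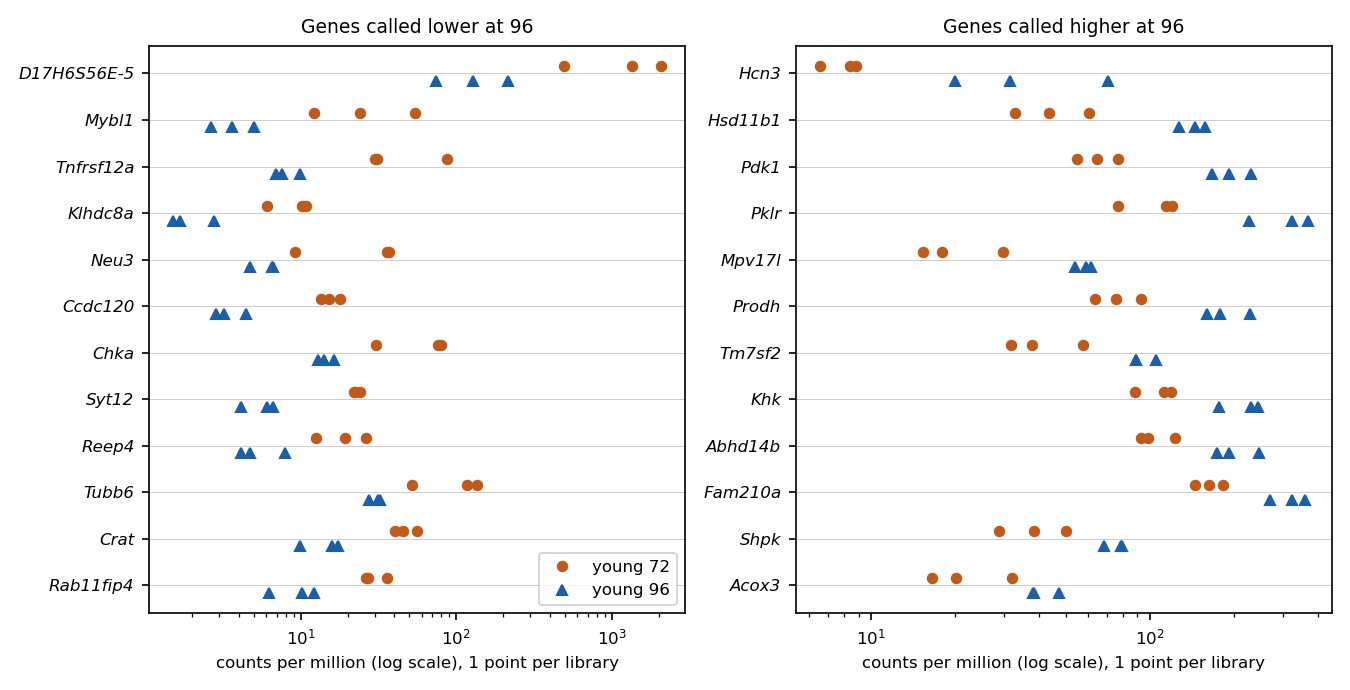
CPM on a log axis for the 12 genes with the largest fall and the 12 with the largest rise among those called with a mean of at least 5 CPM. Each point is 1 library, circles at 72 and triangles at 96, and for every gene the 2 sets of 3 points do not overlap.

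Several of the genes that fell act in the cell cycle. Mybl1, which encodes the MYB-family transcription factor A-MYB, measured 24.1, 54.2 and 12.2 CPM at 72 and 5.03, 2.66 and 3.59 CPM at 96. It fell by 2.98 on the log2 scale (SE 0.55, edgeR adjusted p = 0.0272), and every library at 72 was above every library at 96. Cdkn3, a phosphatase that acts on cyclin-dependent kinases, measured 4.59, 4.62 and 3.56 CPM at 72 and 0.335, 0.760 and 0 CPM at 96. Its log2 fold change was -3.33 ± 0.78 (SE) (edgeR adjusted p = 0.0471), with the values at 96 at or below the level of 3 counts in 2 of 3 libraries. The mitotic kinase gene Mastl, which holds phosphatase PP2A in check during mitosis, had a log2 fold change of -1.49, Lin37, which encodes a subunit of the MuvB core, -1.24, and Cntrob, which encodes a centriole protein, -1.17. Reep4, whose product clears endoplasmic reticulum from chromosomes in mitosis, measured 19.3, 26.2 and 12.5 CPM at 72 and 4.69, 7.98 and 4.15 CPM at 96 (-1.77 ± 0.41 (SE), edgeR adjusted p = 0.046). Its libraries at 72 were all above those at 96.

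Receptor, cytoskeletal and signalling genes also fell. Tnfrsf12a, the receptor for the cytokine TWEAK and a member of the fetal liver and progenitor list, measured 30.0, 87.0 and 31.1 CPM at 72 and 7.54, 9.88 and 6.91 CPM at 96, which gave a log2 fold change of -2.59 ± 0.60 (SE) (edgeR adjusted p = 0.046). Replicate 2 at 72 was the high library, and the libraries at 96 overlapped those before, at 11.9, 7.46 and 8.72 CPM. Tubb6, a beta-tubulin gene, measured 118, 136 and 52.2 CPM at 72 and 27.5, 32.5 and 31.2 CPM at 96 and fell by 1.75 on the log2 scale. Dusp8, a phosphatase of stress-activated MAP kinases, measured 6.12, 8.51 and 5.60 CPM at 72 and 0.503, 0.570 and 0.829 CPM at 96 and fell by 3.40 (SE 0.64, edgeR adjusted p = 0.0272), to a level at 96 near that of 3 counts. Among the receptor and adhesion genes, Epha2 and Ddr1, both receptor tyrosine kinases, had log2 fold changes of -1.39 and -1.42, and Fermt1, an integrin activator, of -3.77. Lmna, which encodes lamins A and C of the nuclear envelope, fell by 1.02.

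Enzymes and carriers were a further group among the genes that fell. Chka, choline kinase alpha, which starts the synthesis of phosphatidylcholine from choline, measured 76.5, 79.2 and 30.3 CPM at 72 and 12.9, 16.3 and 14.1 CPM at 96 (-2.10 ± 0.44 (SE), edgeR adjusted p = 0.036). Crat, carnitine acetyltransferase, measured 45.3, 40.6 and 55.7 CPM at 72 and 15.9, 17.3 and 9.95 CPM at 96. Unlike most genes that fell, it had its highest library at 72 in replicate 3, and its log2 fold change was -1.70 ± 0.32 (SE) (edgeR adjusted p = 0.0272). Neu3, a sialidase of gangliosides, measured 36.0, 36.7 and 9.16 CPM at 72 and 6.54, 4.75 and 6.63 CPM at 96 and fell by 2.197. Slc16a1, the monocarboxylate transporter MCT1 that carries lactate and pyruvate, measured 159, 206 and 139.7 CPM at 72 and 93.5, 74.7 and 66.1 CPM at 96 and fell by 1.105 (SE 0.25, edgeR adjusted p = 0.0448). Its 3 values before, 80.7, 113 and 140.2 CPM, overlapped both later groups. D17H6S56E-5 was the most abundant of the genes that fell, at 1342, 2063 and 496 CPM at 72 and 74.6, 214 and 128 CPM at 96, a fall of 3.23 on the log2 scale (edgeR adjusted p = 0.0448). The other named genes that fell were Klhdc8a (-2.22), Ccdc120 (-2.17), Syt12 (-1.998) and Rab11fip4 (-1.66).

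The remaining genes that fell, outside the naming rule because of their level, symbol or size of change, had log2 fold changes from -3.08 (1190002F15Rik) to -0.65 (Txndc5, a disulfide isomerase of the endoplasmic reticulum). Between these lay Lrfn3 (-1.64), Crip2 (-1.53), Nedd4l, a ubiquitin ligase of ion channels (-1.50), Srrm4, a splicing regulator (-1.38), Gtf2ird1 (-1.38), Kifc3, a kinesin (-1.21), Arfgap3 and Golt1b, both of Golgi transport (-1.14 and -1.097), Pawr (-0.94), the polarity gene Pard6b (-0.92) and Caskin2 (-0.79). Fermt1 measured 8.99, 11.2 and 3.31 CPM at 72 and 0.503, 0.190 and 1.11 CPM at 96 and Lin37 9.37, 6.80 and 5.34 CPM at 72 and 2.85, 3.04 and 3.32 CPM at 96. Both were higher in every library at 72 than in any at 96, Fermt1 at a low level.

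Genes of glucose, fructose and amino acid metabolism stand among the 18 that rose. Pklr, the liver form of pyruvate kinase, measured 76.9, 114 and 119.9 CPM at 72 and 322, 368 and 228 CPM at 96. Its log2 fold change was 1.56 ± 0.35 (SE) (edgeR adjusted p = 0.0396), and the lowest library at 96 was well above the highest at 72. Khk, ketohexokinase, the first enzyme of fructose breakdown, measured 88.1, 112 and 119 CPM at 72 and 245, 231 and 178 CPM at 96 (1.03 ± 0.21 (SE), edgeR adjusted p = 0.0357). Pdk1, a kinase that turns down the pyruvate dehydrogenase complex, measured 54.9, 64.7 and 76.9 CPM at 72 and 230.0, 167 and 192 CPM at 96 and rose by 1.59 on the log2 scale (SE 0.32, edgeR adjusted p = 0.0272). Prodh, proline dehydrogenase, which starts the breakdown of proline, measured 75.3, 63.4 and 92.6 CPM at 72 and 229, 161 and 179 CPM at 96 and rose by 1.30. Shpk, the sugar kinase sedoheptulokinase, rose by 0.95. In all 5 of these genes replicate 3 was the highest library at 72, and still below every library at 96.

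Steroid, sterol and fatty acid enzymes formed a further set of the genes that rose. Hsd11b1, which regenerates active glucocorticoid inside the cell, measured 32.9, 43.3 and 60.3 CPM at 72 and 158, 127 and 145 CPM at 96, a log2 fold change of 1.66 ± 0.34 (SE) (edgeR adjusted p = 0.036). The lowest library at 96 was well above the highest at 72. Tm7sf2, a sterol reductase of cholesterol synthesis, measured 31.7, 37.7 and 57.5 CPM at 72 and 105, 89.3 and 89.0 CPM at 96 (1.16 ± 0.26 (SE), edgeR adjusted p = 0.0401). Acox3, a peroxisomal acyl-CoA oxidase, rose by 0.85, and Cyp2d22, the only called gene of 41 cytochrome P450 genes tested, measured 163, 161 and 196 CPM at 72 and 294, 268 and 281 CPM at 96 and rose by 0.70 (SE 0.15, edgeR adjusted p = 0.0396). Hcn3, which encodes a hyperpolarization-activated cation channel, rose most among the named genes, from 8.79, 6.56 and 8.40 to 31.5, 70.9 and 19.9 CPM, and its log2 fold change was 2.36 ± 0.49 (SE) (edgeR adjusted p = 0.036). In the libraries before its mean was 98.7 ± 60.2 CPM, it reached 3.63 ± 1.102 CPM at 48, 7.92 ± 1.19 CPM at 72 and 40.8 ± 26.7 CPM at 96, and the libraries at 120 and 240 averaged 32.0 ± 12.7 and 51.5 ± 10.9 CPM (SD, n = 3 each). At 96 replicate 2 lay within the range of the libraries before while the others lay below it. The other named genes that rose were Mpv17l (1.47), Abhd14b (0.95) and Fam210a (0.95). Outside the naming rule, 1500017E21Rik (3.19), Sugct, a mitochondrial CoA transferase (1.84), D2hgdh, which oxidizes D-2-hydroxyglutarate (0.81), Isoc2a (0.79) and Prkacb, a catalytic subunit of protein kinase A (0.61), rose as well.

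Set against the libraries before, the genes that fell had been high at 72 and the genes that rose had been low. Both of these comparisons share libraries with the step, so their values are given side by side only. At 72, 2350 of the tested genes (17.5%) differed from before, 1244 higher (9.26%) and 1106 lower (8.23%), and 49 of the 53 genes were among them, with 32 of the 35 that fell higher and 17 of the 18 that rose lower. At 96, 193 genes (1.44%) differed from before, 92 higher (0.685%) and 101 lower (0.752%), and 2 of the 53, D17H6S56E-5 and Caskin2, were among them. The median log2 fold change against before of the genes that fell was 1.43 at 72 and -0.03 at 96, and that of the genes that rose was -1.24 at 72 and -0.18 at 96. The mean at 96 lay within the range of the 3 libraries before for 8 of the 35 (22.86%) and for 8 of the 18 (44.44%), against 6147 of all tested genes (45.75%). For D17H6S56E-5 the 3 values before were 12.1, 24.9 and 15.98 CPM, and its level at 96 was still above them.

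Levels over all young time labels (mean ± SD, n = 3 each) place the step in the course of the response. Mybl1 was at 0.997 ± 0.479 CPM before, 52.7 ± 14.6 at 48, 30.2 ± 21.6 at 72, 3.76 ± 1.19 at 96, 6.57 ± 2.81 at 120 and 2.67 ± 1.14 CPM at 240. Chka had 15.9 ± 0.772 CPM before, 73.0 ± 14.3 at 48, 62.0 ± 27.5 at 72 and 14.4 ± 1.74 CPM at 96. Crat was at 24.9 ± 11.5 CPM before and 47.2 ± 7.75 CPM at 72, and at 14.4 ± 3.90, 13.04 ± 2.93 and 16.6 ± 1.25 CPM at 96, 120 and 240. For these 3 genes the means at 48 and 72 were above the means before and at 96. Pklr averaged 594 ± 127 CPM before, 97.6 ± 14.6 at 48, 104 ± 23.3 at 72, 306 ± 71.7 at 96 and 435 ± 90.7 CPM at 240. Khk averaged 228 ± 24.3 CPM before, 93.8 ± 30.2 at 48, 107 ± 16.4 at 72 and 218 ± 35.4 CPM at 96. Pklr and Khk were low at both 48 and 72, and at 96 the mean of Khk was near that before while that of Pklr lay between the means at 72 and before.

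**Figure D2:**
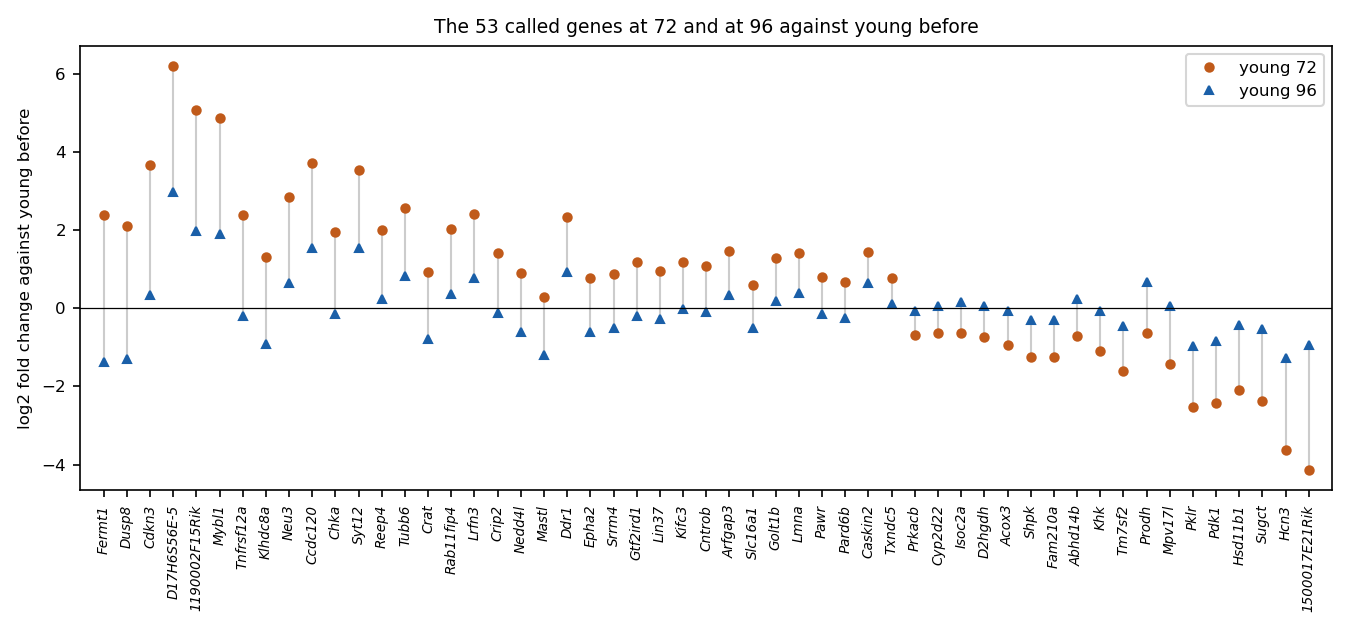
Log2 fold change against the young libraries before, at 72 and at 96, for the 53 genes that changed from 72 to 96. Lines join the 2 values of a gene, which share the libraries before. The medians are 1.43 and -0.03 for the 35 genes that fell and -1.24 and -0.18 for the 18 that rose.

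All 50 tested mitosis genes had a lower estimate at 96, although none of them passed the test across all genes. Of the 50, 33 (66%) had values at 96 below all values at 72, against 10.4% of all genes. An unadjusted p under 0.05 was found for 48, against 14.87% of all genes. The median log2 fold change was -1.98, against 0.01 over all genes. Against before, 49 of the 50 were called higher at 72, as were 9.26% of all genes. The list's median against before was 4.06 at 72 and 1.90 at 96. edgeR called 0 of the 50 and DESeq2 called 21, all lower. Without replicate 3 at 72, edgeR called 39, all lower, with a median of -2.41, and without any one of the other 5 libraries it called 0, with medians from -2.30 to -1.64. Replicate 3 at 72 was singled out by these same genes, so the 39 are a description and add no support. The list's summed level was 3541, 4295 and 1153 CPM in the libraries at 72 and 502.6, 1005 and 712.6 CPM at 96, so the 2 groups did not overlap in the sum, but replicate 3 at 72 lay nearer to the libraries at 96 than to the other 2 at 72.

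Single mitosis genes were likewise lowest in replicate 3 among the libraries at 72. Plk1, the polo-like kinase that drives entry into and passage through mitosis, measured 37.3, 47.9 and 9.16 CPM at 72 and 2.35, 5.13 and 2.21 CPM at 96 and had a log2 fold change of -3.26 ± 0.80 (SE) (edgeR adjusted p = 0.0538). Ccnb1, cyclin B1, the partner of Cdk1 at mitotic entry, measured 20.3, 22.6 and 8.40 CPM at 72 and 1.34, 3.61 and 2.49 CPM at 96 (-2.79 ± 0.78 (SE), edgeR adjusted p = 0.0804). Ccnb2, whose promoter is printed above, measured 17.6, 14.6 and 9.93 CPM at 72 and 1.01, 3.42 and 3.59 CPM at 96 (-2.44 ± 0.59 (SE), edgeR adjusted p = 0.051). In all 3 genes every library at 96 was above the mean before. Cdc20, the activator of the anaphase-promoting complex, measured 128, 142 and 35.1 CPM at 72 and 6.20, 20.1 and 11.3 CPM at 96, and Mki67, the proliferation marker Ki-67, 1166, 1694 and 425 CPM at 72 and 167, 376 and 266 CPM at 96. Neither passed the test (edgeR adjusted p = 0.0733 and 0.177), and for Mki67 the lowest library at 72 and the highest at 96 were close. Foxm1, a transcription factor for mitosis genes, had a log2 fold change of -2.10 ± 0.63 (SE), Cdk1 of -1.75 ± 0.64 (SE) and Top2a, the topoisomerase that untangles chromosomes, of -1.94 ± 0.69 (SE) (edgeR adjusted p = 0.103, 0.177 and 0.168). The groups overlapped for Cdk1 and Top2a. Without replicate 3 at 72 the edgeR adjusted p of Ccnb1, Foxm1 and Cdk1 was 0.0345, 0.0305 and 0.0403. None of the 3 was called without any one of the other 5 libraries. Replicate 3 was singled out by mitosis genes, so these calls add no support.

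**Figure D3:**
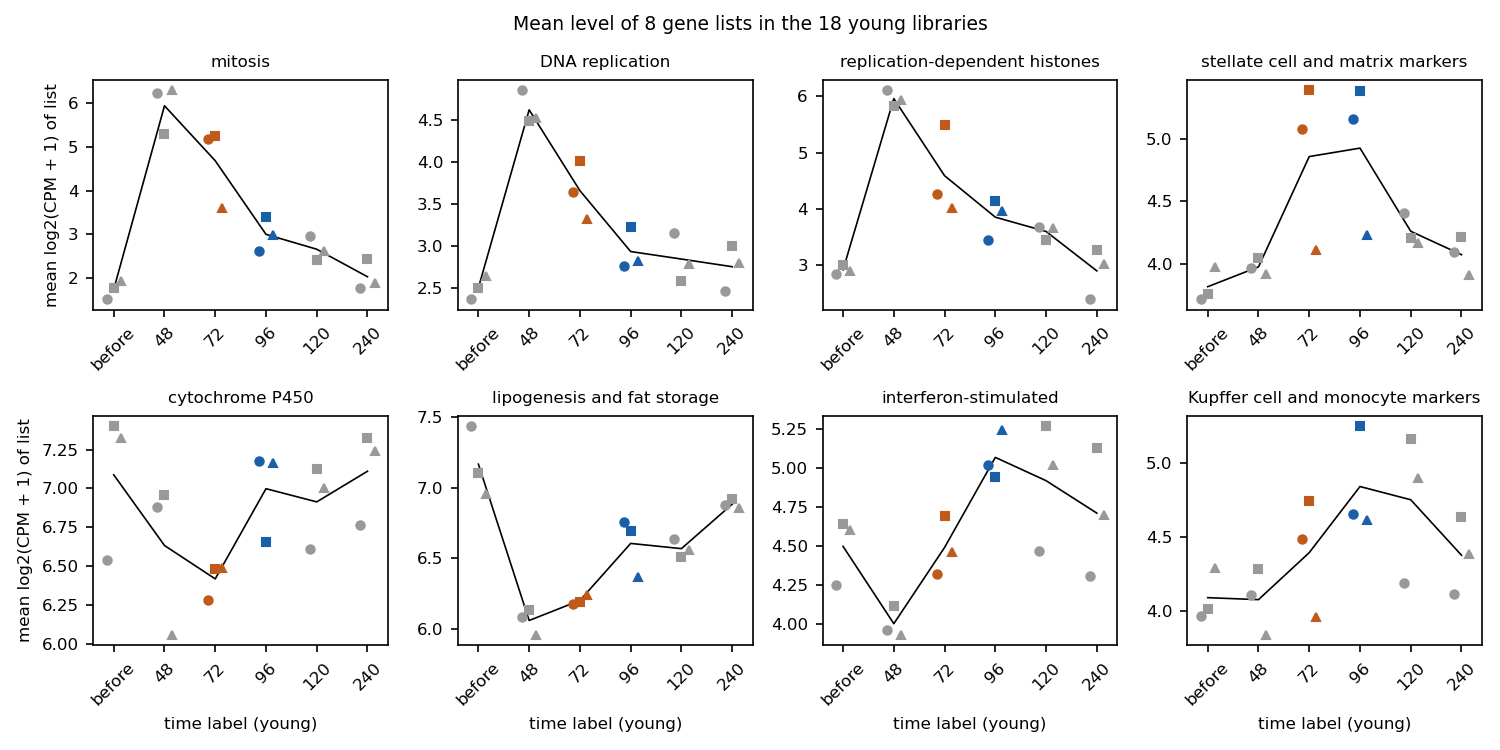
Mean log2(CPM + 1) of 8 gene lists in the 18 young libraries by time label, with 1 symbol per library (circle, square and triangle for replicates 1, 2 and 3) and a line through the group means. For mitosis, replicates 1 and 2 at 72 sit at 5.189 and 5.257, replicate 3 at 3.608, and the libraries at 96 at 2.602 to 3.401, above those before at 1.501 to 1.919.

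Genes of DNA replication had a smaller median than those of mitosis. Of 39 tested members 19 (48.72%) were lower at 96 without overlap, against 10.4% of all genes, and 0 were higher, against 11.2%. The median log2 fold change was -0.80. edgeR called 0, DESeq2 called 3 lower, and 20 had an unadjusted p under 0.05, all lower. Mcm6, a subunit of the replicative helicase, measured 26.2, 36.5 and 17.1 CPM at 72 and 8.88, 13.1 and 3.87 CPM at 96, and Fen1, the flap endonuclease of lagging-strand synthesis, 36.0, 69.8 and 28.8 CPM at 72 and 15.1, 25.3 and 14.1 CPM at 96. Their log2 fold changes were -1.59 ± 0.60 (SE) and -1.29 ± 0.34 (SE) (edgeR adjusted p = 0.193 and 0.0639). Mcm5 (-1.50) and Rrm2, a subunit of ribonucleotide reductase (-1.53), had estimates of similar size. Replication-dependent histone genes, whose messages lack a poly(A) tail and are retained in these total RNA libraries, had lower estimates for all 54 tested members, with a median of -0.995, 8 without overlap (14.81%) and 20 at an unadjusted p under 0.05. edgeR and DESeq2 called 0 of them. Their share without overlap was near the 10.4% of all genes that were lower. Histone genes are near-identical copies, so reads may be split among them.

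Regulators upstream of division had mostly lower estimates at 96, 24 lower and 7 higher. Of 31 cell cycle regulators 11 were lower without overlap (35.48%) and 1 was higher (3.23%), against 10.4% and 11.2% of all genes. Among these regulators Cdkn3 alone was called. Ccnd1, cyclin D1, which couples growth signals to the cycle, measured 497, 804 and 308 CPM at 72 and 526, 209.6 and 577 CPM at 96, with overlapping groups and an estimate of -0.29 that ran from -0.598 to 0.12 when 1 library was left out. E2f1, a transcription factor of S phase, had an estimate of -0.70 (edgeR adjusted p = 0.526). Cdkn1a, the cyclin-dependent kinase inhibitor p21, measured 31.2, 61.2 and 29.8 CPM at 72 and 11.7, 15.8 and 6.91 CPM at 96, without overlap, and had a log2 fold change of -1.80 ± 0.63 (SE) that did not pass the test (edgeR adjusted p = 0.158). Of the 24 p53 targets tested 11 were lower (45.83%) and 4 higher (16.67%) without overlap, with a median of -0.32. Of 30 DNA repair genes 12 were lower (40%) and 0 higher without overlap, with a median of -1.08. edgeR called 0 in both lists, where 7 and 14 genes had an unadjusted p under 0.05 and DESeq2 called 1 and 3.

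Several lists of liver function had medians above 0.01, that of all genes, while the hepatocyte transcription factors were near it. Of 34 such factors 18 had a higher and 16 a lower estimate, and the median was 0.03. Without overlap 5 were higher (14.71%) and 1 lower (2.94%), against 11.2% and 10.4% of all genes. Among the 10 hepatocyte markers 0 were higher and 1 was lower without overlap, with a median of 0.13. Among 41 cytochrome P450 genes 11 (26.83%) were higher without overlap and 0 lower, with a median of 0.47. Conjugation enzymes, which attach glutathione, glucuronate or sulfate to drugs and hormones, had 13 of 39 higher (33.33%) and 0 lower, with a median of 0.62. edgeR called 0 of these 39, DESeq2 called 3, and 13 had an unadjusted p under 0.05. Ugt1a1, which conjugates bilirubin, measured 284, 430.4 and 561 CPM at 72 and 983, 728 and 1215 CPM at 96, a log2 fold change of 1.20 ± 0.36 (SE) (edgeR adjusted p = 0.106). Cyp1a2, a pericentral drug-metabolizing enzyme, measured 130.0, 401 and 491 CPM at 72 and 896, 1172 and 972 CPM at 96 (1.57 ± 0.53 (SE), edgeR adjusted p = 0.145). Cyp2e1, which oxidizes ethanol, measured 575, 1030.0 and 2310.0 CPM at 72 and 2754, 2298 and 2668 CPM at 96. Replicate 3 at 72 was above replicate 2 at 96, so the groups overlapped, and the log2 fold change of 0.98 ± 0.35 (SE) did not pass the test (edgeR adjusted p = 0.167). The estimate ran from 0.612 to 1.75 over the alternatives. Without replicate 3 at 72 the edgeR adjusted p was 0.0161, and Cyp2e1 was not called without any one of the other 5 libraries. Replicate 3 was its highest library at 72 and was set apart by outcome values, so this call adds no support.

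Lists of intermediary metabolism had smaller medians, with a few called members. Their counts without overlap are to be read against 11.2% higher and 10.4% lower among all genes. In the gluconeogenesis and glycogen list, 10 of 28 were higher without overlap and 1 lower, with 2 called higher (Pklr and Khk) and 1 called lower (Slc16a1). The urea cycle and amino acid list had 12 of 49 higher (24.49%) and 3 lower (6.12%) without overlap, with Prodh called. Lipogenesis had 12 of 34 higher and 2 lower, and Thrsp, a hepatic regulator of fat synthesis, measured 84.3, 228 and 124 CPM at 72 and 1173, 1029 and 458 CPM at 96 (2.61 ± 0.64 (SE), edgeR adjusted p = 0.051). Fasn, fatty acid synthase, measured 735, 756 and 665 CPM at 72 and 1227, 1354 and 1104 CPM at 96, without overlap, and the 3 libraries before measured 3351, 3181 and 2983 CPM. Its log2 fold change was 0.77 ± 0.31 (SE) for the step (edgeR adjusted p = 0.23), and at 96 it was still 1.37 below before on that scale (edgeR adjusted p = 0.0209), so the value at 96 lay between those at 72 and before. In the cholesterol list 7 of 28 were higher and 1 lower, with Tm7sf2 called, and the sterol exporter pair Abcg5 and Abcg8 had log2 fold changes of 1.22 ± 0.38 (SE) and 1.36 ± 0.34 (SE) (edgeR adjusted p = 0.121 and 0.0563). Medians were 0.33 for gluconeogenesis and glycogen, 0.27 for urea cycle and amino acids, 0.30 for lipogenesis and 0.29 for cholesterol.

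Further liver lists had similar or smaller medians, except the pericentral Wnt targets. Fatty acid oxidation had 7 of 35 higher (20%) and 2 lower (5.71%) without overlap, with a median of 0.18. Bile acid genes had 5 of 29 higher (17.24%) and 2 lower (6.90%), with a median of 0.21. Oxidative phosphorylation had 7 of 35 higher (20%) and 0 lower, with a median of 0.26, and secreted plasma proteins had 2 of 38 higher (5.26%) and 4 lower (10.53%), with a median of 0.10. Among all genes 11.2% were higher and 10.4% lower without overlap, so the shares of bile acid genes and plasma proteins were near the background or below it. Alb, serum albumin, had an estimate of 0.16 ± 0.23 (SE), Hnf4a, the hepatocyte nuclear receptor, of -0.08 ± 0.13 (SE), Cps1, which feeds the urea cycle, of 0.19 ± 0.34 (SE), Pck1, of gluconeogenesis, of 0.28 ± 0.32 (SE), and Cyp7a1, the rate-limiting enzyme of bile acid synthesis, of 0.21 ± 0.92 (SE). None of these 5 passed the edgeR test (adjusted p = 0.812, 0.845, 0.856, 0.74 and 0.947). Pericentral Wnt targets had 7 of 29 higher and 1 lower without overlap (median 0.43), and Glul, glutamine synthetase, had an estimate of 0.72 ± 0.40 (SE) (edgeR adjusted p = 0.402). Ppara, the nuclear receptor for fatty acids, had an estimate of 0.74 ± 0.29 (SE) and Cyp3a11, of drug metabolism, of -0.30 ± 0.68 (SE), neither past the edgeR test (adjusted p = 0.215 and 0.893). Cidea, a lipid droplet gene, was at 0.162 CPM on average at 72 and 0.0921 CPM at 96, under the level of 3 counts, so no fold is given. Igfbp1, a binding protein of insulin-like growth factors, measured 79.7, 75.1 and 58.3 CPM at 72 and 54.0, 46.5 and 40.4 CPM at 96, against 422, 466 and 462 CPM before, and its log2 fold change of -0.59 ± 0.69 (SE) did not pass the test (edgeR adjusted p = 0.75).

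**Figure D4:**
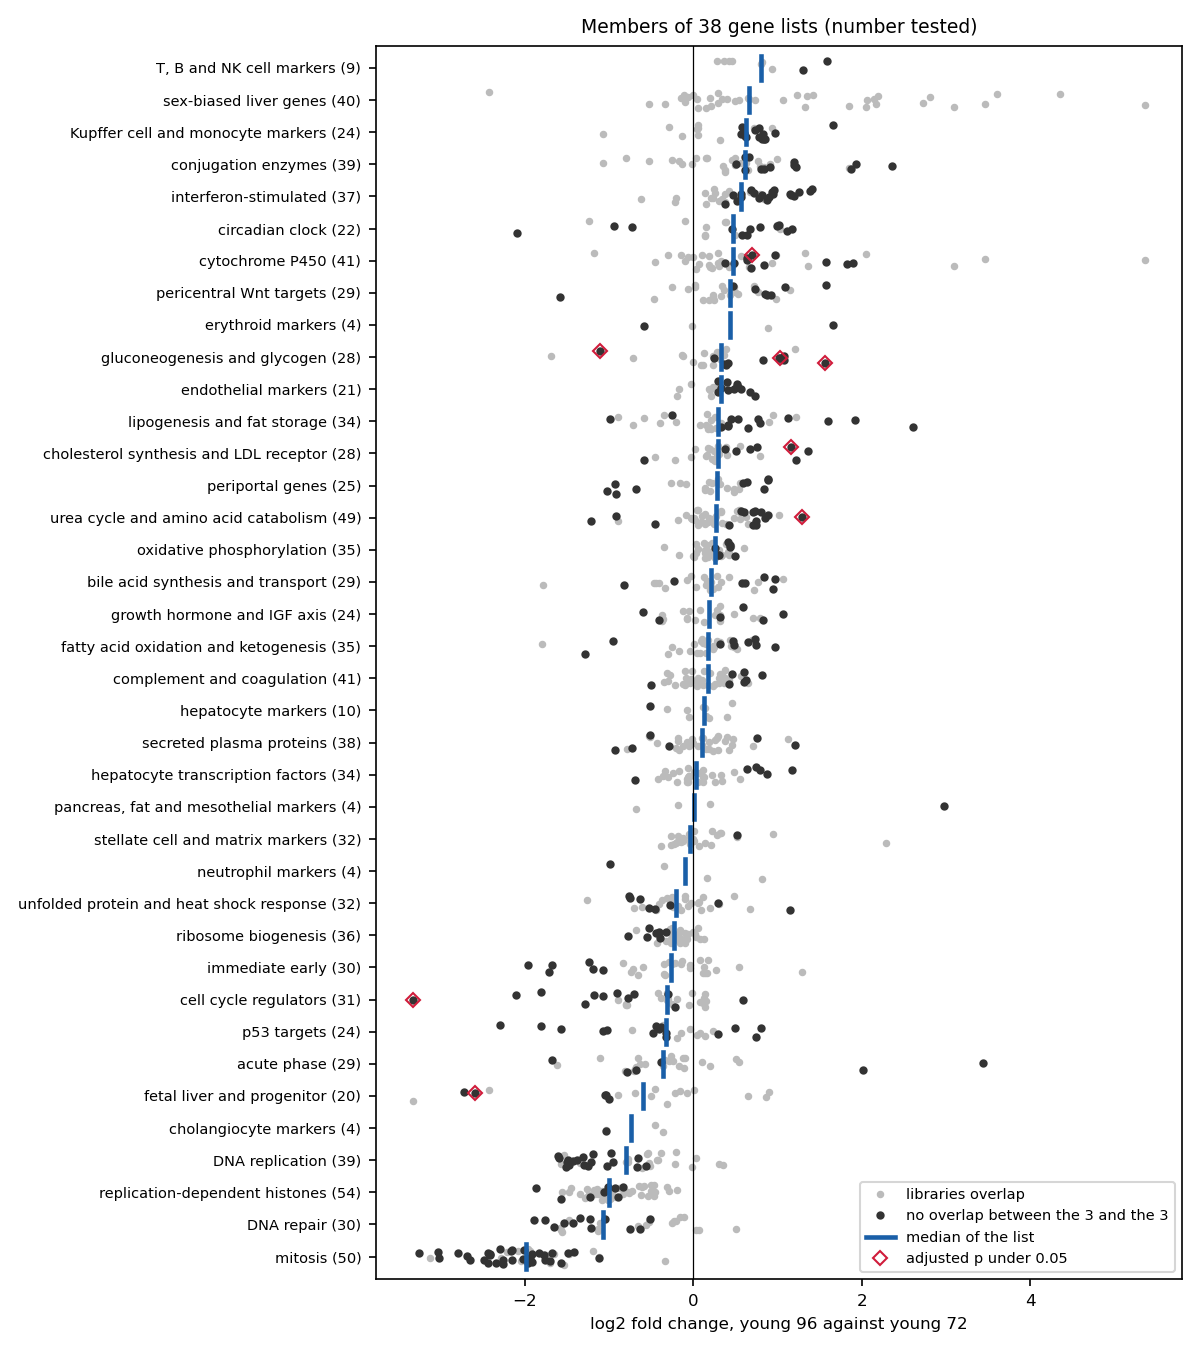
Log2 fold change from 72 to 96 in young liver for the tested members of 38 gene lists, 1 point per gene. Dark points are genes whose groups do not overlap, red diamonds are called genes and the blue bar is the list's median, which runs from -1.98 for mitosis to 0.80 for T, B and NK cell markers.

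The clock list held genes that differed in either direction. Arntl, which encodes the activator BMAL1, measured 6.501, 5.83 and 2.54 CPM at 72 and 0.670, 1.71 and 1.11 CPM at 96, and Clock, its partner, 129, 139 and 139.5 CPM at 72 and 75.1, 93.5 and 78.0 CPM at 96. Both were lower at 96 without overlap, with log2 fold changes of -2.10 ± 0.62 (SE) and -0.72 ± 0.21 (SE) (edgeR adjusted p = 0.101 and 0.0936). Dbp, a target of that pair, measured 22.4, 31.4 and 59.6 CPM at 72 and 68.2, 82.1 and 105 CPM at 96 and Per3, a repressor of it, 78.6, 69.5 and 108 CPM at 72 and 177, 141 and 202 CPM at 96, both higher at 96 without overlap. Over the list 9 of 22 were higher (40.91%) and 3 lower (13.64%) without overlap, against 11.2% and 10.4% of all genes. The lower share was thus near that of all genes. The third lower gene was Nfil3 (-0.94), and the list's median was 0.48. edgeR and DESeq2 called 0 and 1 of the 22, and 9 had an unadjusted p under 0.05, against 14.87% of all genes. The hour of day at which livers were taken is not in the labels.

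Most interferon-stimulated genes had higher values at 96, and none passed the test. Of 37 tested members 34 had a higher estimate and 3 a lower one, and 20 (54.05%) were higher without overlap, against 11.2% of all genes, and 0 were lower, with a median of 0.57. edgeR called 0, DESeq2 called 0, and 2 of 37 had an unadjusted p under 0.05, against 14.87% of all genes. Ifit3, an antiviral effector whose promoter above holds 2 ISRE matches, measured 27.0, 41.3 and 29.5 CPM at 72 and 82.3, 75.2 and 102 CPM at 96 (1.41 ± 0.70 (SE), edgeR adjusted p = 0.343). Gbp7, an interferon-induced GTPase, measured 49.1, 89.0 and 57.0 CPM at 72 and 124, 98.2 and 154 CPM at 96 (0.95 ± 0.37 (SE), edgeR adjusted p = 0.208). The mean log2(CPM + 1) of the list was 4.321, 4.691 and 4.458 at 72 and 5.018, 4.942 and 5.246 at 96, while in old libraries it was 4.261, 4.285 and 6.402 at 72 and 5.809, 4.406 and 4.246 at 96, where 1 library of each group was high.

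Kupffer cell and monocyte markers had mostly higher values at 96, and none passed the edgeR test. Of 24 tested, 21 had a higher estimate and 3 a lower one. Without overlap 14 (58.33%) were higher and 0 lower, against 11.2% and 10.4% of all genes. The median was 0.62, and 10 had an unadjusted p under 0.05, against 14.87% of all genes. edgeR called 0 and DESeq2 0. The list summed to 1149, 1484 and 1330 CPM at 72 and to 1611, 2132 and 1895 CPM at 96. Clec4f, a lectin of mouse Kupffer cells, measured 103, 146 and 158 CPM at 72 and 235, 222 and 273 CPM at 96 (0.84 ± 0.40 (SE), edgeR adjusted p = 0.326), Cd163, a haemoglobin scavenger receptor, 43.0, 39.6 and 71.8 CPM at 72 and 93.5, 91.8 and 118 CPM at 96, and C1qc, a subunit of complement C1q, 56.0, 85.1 and 60.6 CPM at 72 and 96.6, 142 and 119 CPM at 96. All 3 were higher in each library at 96. Endothelial markers had 12 of 21 higher without overlap (57.14%) and 0 lower, with a median of 0.32 and sums of 971.1, 983.4 and 850.8 CPM at 72 and 1235, 1244 and 1196 CPM at 96. Kdr, the main VEGF receptor of endothelium, measured 78.2, 83.1 and 83.7 CPM at 72 and 108, 106 and 111 CPM at 96 (0.41 ± 0.25 (SE), edgeR adjusted p = 0.46). edgeR called 0 of these 21, DESeq2 0, and 6 had an unadjusted p under 0.05. In bulk liver, more cells of a type and more RNA per cell cannot be told apart, and the part of these cells in the interferon values was not tested.

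Matrix genes had a median near that of all genes, while both groups stood above the libraries before. Of 32 stellate cell and matrix markers 1 was higher and 0 lower without overlap, with a median of -0.03. Against before, 19 of them were called higher at 72 and 14 at 96, where 9.26% and 0.685% of all genes were. The mean log2(CPM + 1) of the list was 5.082, 5.39 and 4.108 at 72, 5.16, 5.389 and 4.234 at 96 and 3.715 to 3.973 before, so the third library was the low one in both groups. Acute phase genes had a median of -0.36, with 4 of 29 lower (13.79%) and 2 higher (6.90%) without overlap. Among all genes 10.4% were lower and 11.2% higher without overlap, so these shares were near the background or below it. Lcn2, lipocalin 2, which binds bacterial siderophores, measured 252, 200.5 and 204 CPM at 72 and 83.2, 33.6 and 89.3 CPM at 96, without overlap, against 2.08, 3.48 and 2.66 CPM before. Its log2 fold change was -1.68 ± 0.68 (SE) for the step (edgeR adjusted p = 0.236) and 4.64 at 96 against before (edgeR adjusted p = 0.00621). Saa1, serum amyloid A, had an estimate of -1.10 ± 0.97 (SE) (edgeR adjusted p = 0.646). Immediate early genes had a median of -0.27, with 6 of 30 lower without overlap (20%). Against before, 16 of them were called lower at 72 and 14 at 96, where 8.23% and 0.752% of all genes were.

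Fetal liver and progenitor genes held 5 of 20 members lower without overlap (25%) and 0 higher, against 10.4% and 11.2% of all genes. The list's median was -0.60. Ly6d, a surface antigen, measured 21.2, 127 and 20.9 CPM at 72 and 8.05, 7.41 and 10.2 CPM at 96, a log2 fold change of -2.73 ± 0.72 (SE) (edgeR adjusted p = 0.0687). Its estimate ran from -3.14 to -1.31 over the alternatives, nearest to 0 without replicate 2 at 72, its highest library. It was called without replicate 3 at 72 (edgeR adjusted p = 0.0227) and not without any one of the other 5 libraries. Replicate 3 was set apart by outcome values, so this call adds no support. Afp, alpha-fetoprotein, had an estimate in the other direction, 0.90 ± 0.51 (SE) (edgeR adjusted p = 0.42). Krt8 and Krt18, the keratin pair of hepatocytes and bile duct cells, measured 334, 481 and 242 CPM at 72 and 150.4, 222 and 155 CPM at 96 and 403, 606 and 405 CPM at 72 and 196, 278 and 213 CPM at 96, and each had all libraries at 96 below those at 72 (edgeR adjusted p = 0.205 and 0.153). H19, an imprinted RNA of fetal liver, measured 386, 126 and 5.09 CPM at 72 and 18.9, 15.4 and 17.1 CPM at 96. Its 3 libraries at 72 ranged from below to far above those at 96, and the estimate of -3.33 ± 1.14 (SE) did not pass the test (edgeR adjusted p = 0.153). Beside these, the 4 cholangiocyte markers tested summed, with the untested ones, to 150.9, 306.2 and 59.3 CPM at 72 and 59.01, 155.6 and 59.43 CPM at 96, and the part of bile duct cells in these values was not tested.

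No gene passed the test for the same step in old liver. edgeR called 0 of 13436 genes (0%) between old 72 and old 96, DESeq2 called 0, and 420 had an unadjusted p under 0.05. Groups did not overlap for 543 higher (4.04%) and 545 lower (4.06%) genes. Of the 53 genes that changed in young liver, 47 (88.68%) had an estimate of the same sign in old liver, against 60.45% of all genes. The 35 that fell had medians of -1.53 in young and -0.37 in old, and the 18 that rose 1.097 and 0.253. These genes were chosen by the young test, which favours larger young values, so no difference in size between the ages is read from these medians. Groups in old liver did not overlap for 2 of the 35 and 4 of the 18. The difference between the steps of the 2 ages was called for 0 genes by edgeR (0%) and by DESeq2, with 625 at an unadjusted p under 0.05, so no gene was shown to differ between the ages in this step.

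Several members with a wide gap between the ages are named for description. Dusp8 measured 3.49, 1.17 and 7.28 CPM at old 72 and 6.44, 5.17 and 1.41 CPM at old 96, and its step was 0.07 in old against -3.40 in young, a difference of -3.47 (edgeR unadjusted p = 0.000305, adjusted p = 0.9999). Mybl1 measured 17.9, 15.0 and 32.5 CPM at old 72 and 37.8, 19.2 and 5.91 CPM at old 96, and Slc16a1 239, 213 and 188 CPM at old 72 and 314, 239 and 148 CPM at old 96. Old groups overlapped for both genes, with steps of -0.10 and 0.13. Prkcq, a protein kinase C, measured 2.68, 2.19 and 2.04 CPM at 72 and 4.69, 5.32 and 6.63 CPM at 96 and 3.28, 4.21 and 3.45 CPM at old 72 and 1.29, 2.48 and 2.81 CPM at old 96, with steps of 1.24 in young and -0.67 in old, not called in young liver (edgeR adjusted p = 0.0671). The gene 2310009B15Rik measured 1.15, 0.486 and 0.509 CPM at 72 and 0.838, 1.33 and 1.11 CPM at 96 and 1.23, 1.17 and 1.15 CPM at old 72 and 0, 0 and 0 CPM at old 96, near or under the level of 3 counts in most libraries, so no fold is given. Among the genes that rose, Hsd11b1 measured 75.1, 85.2 and 42.5 CPM at old 72 and 69.6, 115 and 142 CPM at old 96 and Pklr 227, 132 and 102 CPM at old 72 and 99.6, 183 and 249.5 CPM at old 96, with steps of 0.69 and 0.21. The mitosis list had a median of -0.50 in old liver with 0 of 50 members without overlap, and a mean log2(CPM + 1) of 4.381, 5.451 and 5.074 at 72 and 4.952, 4.994 and 3.134 at 96. Replicates 1 and 2 at old 96 lay within the range of old 72, and replicate 3 lay below it. Pericentral Wnt targets had 7 of 29 higher without overlap at either age, against 11.2% of all genes in young and 4.04% in old. Their medians were 0.43 in young and 0.52 in old.

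**Figure D5:**
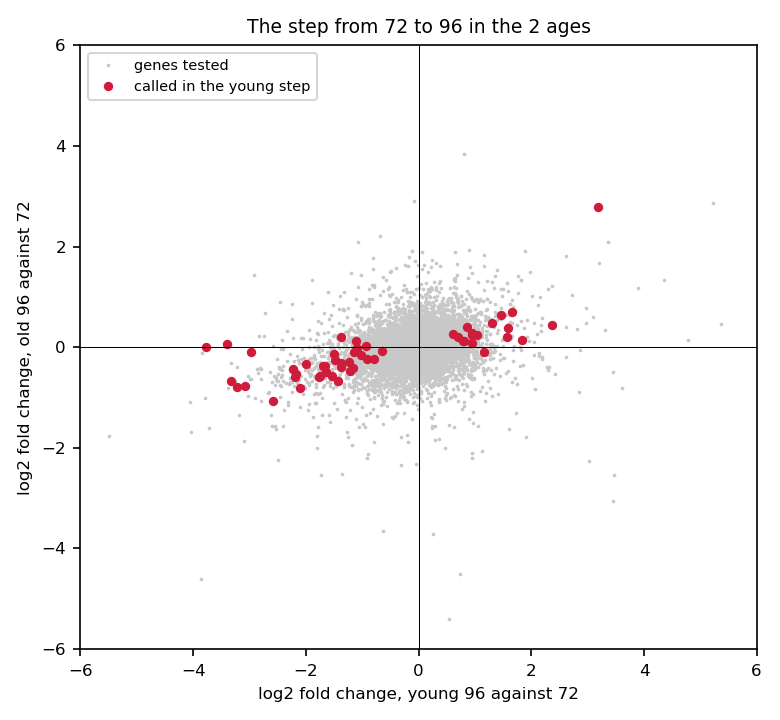
Log2 fold change from 72 to 96 in old liver against that in young liver for 13436 genes, with the 53 genes called in young liver in red. Of these 53, 47 lie on the same side of 0 at both ages, and they were chosen by the young values.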

How the data were processed

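Total RNA was sequenced from whole liver, and the authors deposited 1 table of whole-number counts per gene symbol for each library, not normalized. The submitters' processing notes name Trimmomatic 0.39, STAR 2.7.5b, featureCounts and the builds GRCm38 and mm10. The annotation and the strand setting are not given in the sources used here, so antisense, overlapping and multicopy genes are uncertain. Of 21955 symbols, 27 read as dates. The tests used edgeR 4.0.16 (R 4.3.3): TMM scaling (factors 0.930 to 1.133), filterByExpr by group (13436 genes), and 1 quasi-likelihood fit of all 36 libraries with a mean per group, so that the 12 groups shared an estimate of the spread (common biological coefficient of variation 24.7%). Benjamini-Hochberg adjustment ran over all tested genes, with calls at an adjusted p under 0.05. The script was tested on simulated data. Alternatives were DESeq2 1.42.0, other scalings and filters, thinned counts, only the groups compared, Y-linked transcripts as a covariate, a replicate block, and leaving out each library.

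Named genes were the 12 largest rises and 12 largest falls among called genes with a mean of at least 5 CPM and groups without overlap (clone and predicted symbols left out), 28 genes given whatever their result (1 is not reported here), up to 2 called members per direction of each list, and the 4 genes with the smallest p for the difference between the ages. Other genes named with values were chosen from the lists after their values were seen. The comparison and the 38 gene lists (1161 of 1174 listed symbols matched) were chosen with earlier results of these data known. Lists are described by counts and medians, with no test of a list.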

Additional observations from a re-analysis of the deposited data

How the results depend on the processing

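The 53 genes called from 72 to 96 in young liver became 290 with DESeq2, 174 with Y-linked transcripts as a covariate, 121 with only the groups compared, 362 without the libraries with Y-linked transcripts, 100 with total-count scaling (21 higher and 79 lower, against 18 and 35), and 0 to 370 when 1 library was left out. The 362, like the 370, leave out replicate 3 at 72. Median-of-ratios scaling, the other 2 filters and thinned counts gave 46 to 63. Of the 53, 31 were among the 60 called with thinned counts, 32 among the 121 and 44 among the 46 called with no filter. With the replicate number as a block the count was 88. The numbers do not pair these libraries (correlations of deviations 0.081, 0.031 and -0.058 for numbers 1, 2 and 3). The difference between the ages gave 1 call with the Y-linked covariate and 0 otherwise, and the old step 0 throughout. For 72 against before (2350) thinned counts gave 1455 and leaving out 1 library 1249 to 2455. For 96 against before (193) DESeq2 gave 385, thinned counts 114, only the groups compared 482, no libraries with Y-linked transcripts 61, and leaving out 1 library 59 to 123. Total-count scaling moved the median of all genes to 0.21 at 72 and 0.13 at 96 against before, and the splits to 2103 higher and 542 lower, and 149 and 65. The cause of these shifts was not tested. Estimates that changed sign, with no call in the fit of all libraries, were Ccnd1 (-0.598 to 0.12 when 1 library was left out), Cyp7a1 (-0.066 with the Y-linked covariate, -0.338 to 1.002 when 1 library was left out), Cps1 (-0.031 to 0.286 when 1 library was left out) and Hnf4a (0.066 without the libraries with Y-linked transcripts). Of the 28 named called genes, 11 stayed called under all 10 alternatives other than leaving out a library, and none of the 28 changed sign under any of the 16 alternatives. The 3 libraries per group, with 3 counts at 0.501 to 0.807 CPM, limit what can be seen of low genes.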

Other observations

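Lists outside the comparisons above gave these values for the young step, to be read against 11.2% higher and 10.4% lower without overlap among all genes. Ribosome biogenesis genes had 7 of 36 members lower (19.44%) and 0 higher without overlap, with a median of -0.23. Nat10, an RNA acetyltransferase of the nucleolus, measured 40.0, 29.4 and 40.2 CPM at 72 and 24.6, 18.4 and 21.0 CPM at 96 (log2 fold change -0.77 ± 0.20 (SE), edgeR adjusted p = 0.0681). Of the unfolded protein and heat shock genes 6 of 32 were lower (18.75%) and 2 higher (6.25%), among them Hsp90aa1, a cytosolic chaperone, at 254, 285 and 238 CPM at 72 and 148, 180 and 130.2 CPM at 96. The growth hormone and IGF axis had 4 of 24 higher (16.67%) and 2 lower (8.33%), with Ghr, the growth hormone receptor, at 342, 408 and 660.2 CPM at 72 and 750.3, 925 and 835 CPM at 96. Complement and coagulation had 6 of 41 higher (14.63%) and 1 lower (2.44%), with C8g, a subunit of complement C8, at 111, 147 and 174 CPM at 72 and 264, 257 and 242 CPM at 96 (edgeR adjusted p = 0.051). Periportal genes had 5 of 25 higher (20%) and 4 lower (16%). The higher shares of the growth hormone and complement lists were near that of all genes. No gene of these 5 lists was called by edgeR, where 5, 3, 3, 3 and 4 had an unadjusted p under 0.05, and DESeq2 called 1, 0, 1, 1 and 0.

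Sex-biased liver genes had a median of 0.66 with 0 of 40 members without overlap, and Cyp3a16 measured 3.06, 2.19 and 0 CPM at 72 and 8.05, 0.380 and 226 CPM at 96. The libraries with Y-linked transcripts were replicate 3 at 72 and replicate 2 at 96, which were its lowest values. T, B and NK cell markers had a median of 0.80 over 9 tested members, 2 of them higher without overlap (22.22%, against 11.2% of all genes). Their summed levels were 27.2 to 46.4 CPM at 72 and 47.6 to 57.2 CPM at 96. Neutrophil markers summed to 7.63 to 11.3 CPM at 72 and 5.87 to 12.3 CPM at 96, and erythroid markers to 74.8 to 94.2 CPM at 72 and 52.0 to 77.1 CPM at 96.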
